A study of Nasonia vitripennis with 140 samples.

Results

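Ahcy encodes adenosylhomocysteinase, and this account follows that 1 gene of the 15471 in a count table of the parasitoid wasp Nasonia vitripennis through 28 groups of 5 RNA-seq libraries each. The gene was chosen by name, for 2 features of its own counts in these libraries: a higher level in females that varies with body part and stage, and a lower level in the abdomens of males labelled dsx-RNAi. Those values are therefore given as descriptions with no test. The label effect in the other male stages and in females was not named in the choice, and those 13 comparisons were tested. They share libraries with the described values. In female abdomens the label effect follows from the described abdomen differences, so that test was not free of the choice.

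The wasps were of the laboratory strain AsymCX, reared on Calliphora. In this species males develop from unfertilised, haploid eggs and females from fertilised, diploid ones. The groups crossed 7 stages or body parts with both sexes and with injection of double-stranded RNA (dsRNA) against dsx or against GFP, the control sequence, at 4 µg/µl; every group was therefore injected or came from injected mothers. Larvae injected on day 4 were collected on day 7, larvae injected on day 6 on day 9, and pupae injected on day 8 on day 11, with 3 individuals pooled per sample. Adults had been injected as day 8 pupae and were cut into head, thorax and abdomen 1 day after they emerged. Embryos were taken on day 1, in batches of 100, from mothers injected as day 8 pupae; virgin mothers gave male embryos, and the broods counted here as female held 90% to 95% females. The labels do not say that replicates came from separate cultures, so the p-values measure the spread between these samples.

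Adenosylhomocysteinase splits S-adenosylhomocysteine, the product left when a methyltransferase has used S-adenosylmethionine, into homocysteine and adenosine. S-adenosylhomocysteine inhibits many methyltransferases, so the enzyme both recycles the methyl carrier and keeps methylation of DNA, RNA, proteins and small molecules running. The gene doublesex (dsx) encodes a transcription factor with male and female splice forms that directs sexual differentiation in insects.

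Libraries held 59161676 to 112899836 counted reads, with a median of 74785781, and Ahcy received 450 to 22806 of them per library. Levels below are CPM (counts per 1000000 counted reads) scaled within a stage or body part for the makeup of its 20 libraries, unless another scale is named, with the SD over 5 libraries. The target gene, Dsx in the table, was not called lower in any group labelled dsx-RNAi, so those groups are called dsx-labelled. In males its log2 difference, dsx-labelled minus GFP, was 0.47 (SE 0.07) on day 7, 0.72 (SE 0.07) on day 9, 1.32 (SE 0.11) in pupae and 0.27 (SE 0.09) in abdomens. These 4 passed the edgeR quasi-likelihood test (adjusted p = 0.000478, 1.07e-05, 1.16e-06 and 0.0186). In male abdomens Dsx stood at 634 ± 36.5 CPM with the dsx label and 527 ± 31.4 CPM with GFP. The files do not say where in the gene the dsRNA lies.

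Adult abdomens had the widest separation of Ahcy between the sexes. GFP females gave 191, 185, 189, 180 and 190 CPM in replicates 1 to 5, a mean of 187 ± 4.70 (SD, n = 5). GFP males gave 46.2, 35.1, 36.2, 35.4 and 39.6 CPM, a mean of 38.5 ± 4.68 (SD, n = 5). Every female abdomen lay far above every male abdomen, and the log2 difference, male minus female, was −2.28 (SE 0.12), a 4.85-fold lower level in males. A fall at least that large in males was seen in 13.1% of the 12356 genes measured in abdomens, where 44.1% of genes were called lower in males. In bulk samples, fewer cells of a type and less RNA per cell cannot be told apart.

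Ovary and germline markers separated the abdomens too. The summed level of oskar and nanos, which encode germ plasm and germline proteins and were the 2 of 5 ovary list entries found by symbol, was 549 to 676 CPM in GFP female abdomens. It was 529 to 582 CPM in dsx-labelled female abdomens and 0.554 to 1.59 CPM in GFP male abdomens. In dsx-labelled male abdomens it was 0.628 to 41.6 CPM, the highest being replicate 4, and its median was 0.798 CPM. The part of ovary in the Ahcy difference between the sexes was not tested.

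In abdomens of dsx-labelled males Ahcy stood lower again. Replicates 1 to 5 gave 20.3, 12.9, 13.0, 15.7 and 11.6 CPM, a mean of 14.7 ± 3.50 (SD, n = 5). The highest of these, replicate 1, was below the lowest GFP male abdomen at 35.1 CPM. The log2 difference, dsx-labelled minus GFP, was −1.39 (SE 0.12), a 2.62-fold lower level. Among all genes measured in abdomens, 273 (2.21%) fell at least as far, and 17.6% of genes were called lower under the dsx label in this comparison. Replicate 4, the library with 36.7 CPM of oskar and 4.94 CPM of nanos, held 15.7 CPM of Ahcy, inside the range of the other 4. Without that library the log2 difference was −1.41.

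The same label left female abdomens near their controls. Dsx-labelled females gave 196, 217, 195, 186 and 195 CPM in replicates 1 to 5, a mean of 198 ± 11.4 (SD, n = 5). These overlapped the GFP females, with replicate 2 the highest of the abdomen libraries. The log2 difference was 0.08 (SE 0.11, adjusted p = 0.882 by edgeR), while an exact two-sided permutation test of the same libraries gave p = 0.0397 before any adjustment. With males lower and females near their controls, the sexes stood further apart under the dsx label, at a log2 difference of −3.75 (SE 0.13), or 13.4-fold, male minus female, where 42.8% of genes were called lower in males.

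**Figure D1:**
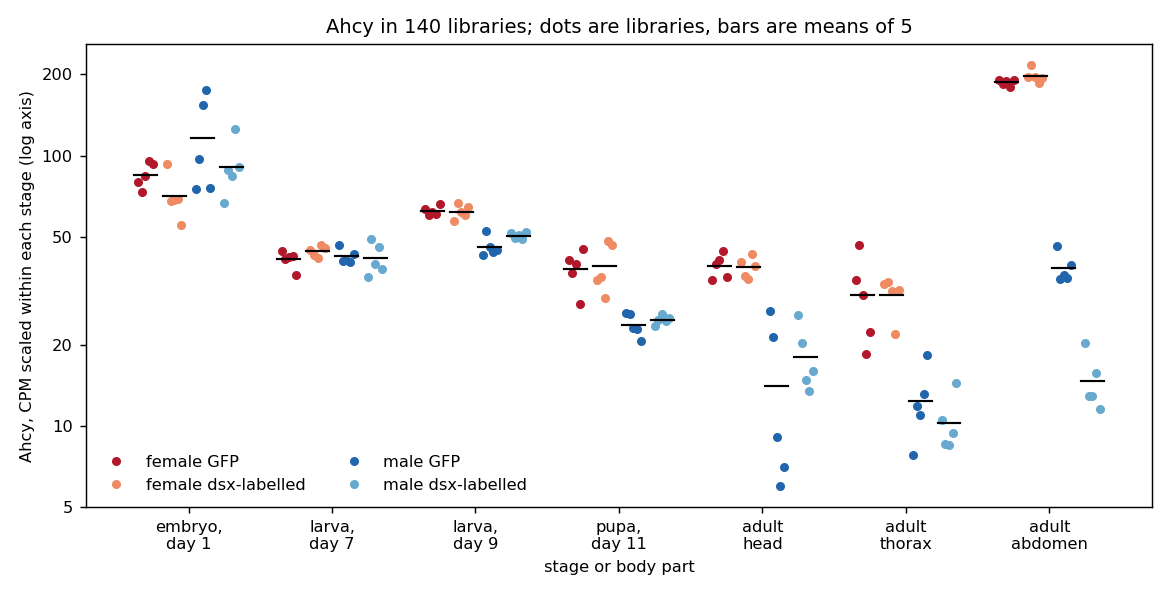
Ahcy in each of the 140 libraries, as CPM scaled within each stage or body part (vertical log axis), by stage, sex and dsRNA; dots are libraries and bars are means of 5. Female abdomens sit at 180 to 217 CPM, GFP male abdomens at 35.1 to 46.2 CPM and dsx-labelled male abdomens at 11.6 to 20.3 CPM.

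Heads and thoraces also held more Ahcy in females, with more spread among replicates than in abdomens. GFP female heads gave 34.7, 39.8, 41.1, 44.5 and 35.6 CPM (39.1 ± 4.03, SD, n = 5). GFP male heads gave 26.6, 21.4, 9.11, 6.00 and 7.02 CPM (14.0 ± 9.34, SD, n = 5). No male head reached a female head, but replicates 1 and 2 stood well above the other 3 males, and the log2 difference was −1.48 (SE 0.32). Dsx-labelled heads gave 40.5, 36.0, 35.0, 43.4 and 39.0 CPM in females (38.8 ± 3.41, SD, n = 5). Those of males gave 25.7, 20.3, 14.8, 13.4 and 15.9 CPM (18.1 ± 4.99, SD, n = 5). Again the sexes did not overlap, at a log2 difference of −1.10 (SE 0.31), and 14.3% of genes were called lower in these males. In GFP heads 2.88% of genes stood at least as far below the female level, and 16% of genes were called lower in males.

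In GFP thoraces females gave 34.6, 46.9, 30.6, 18.5 and 22.3 CPM (30.6 ± 11.2, SD, n = 5). Males gave 7.83, 11.8, 11.0, 13.1 and 18.3 CPM (12.4 ± 3.82, SD, n = 5). The lowest female, replicate 4, lay just above the highest male, replicate 5, and the log2 difference was −1.30 (SE 0.24). Dsx-labelled thoraces gave 33.4, 34.1, 31.6, 22.0 and 31.8 CPM in females (30.6 ± 4.92, SD, n = 5). Males gave 10.5, 8.57, 8.48, 9.42 and 14.5 CPM (10.3 ± 2.47, SD, n = 5), again with no overlap, at a log2 difference of −1.57 (SE 0.24), where 12.8% of genes were called lower in males. For GFP thoraces 5.74% of genes stood as far below the female level, and 19.6% were called lower in males. The summed ovary markers overlapped, at 1.62 to 35.6 CPM (median 7.35) in GFP female thoraces and 0.851 to 2.33 CPM in GFP male thoraces. The highest sum was that of GFP female replicate 2. The part of these markers in the Ahcy difference was not tested.

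Before adulthood the separation was smaller. GFP female pupae gave 41.0, 36.7, 39.7, 28.2 and 45.1 CPM (38.1 ± 6.33, SD, n = 5). GFP male pupae gave 26.1, 26.1, 23.0, 22.8 and 20.6 CPM (23.7 ± 2.36, SD, n = 5). Every female lay above every male, at a log2 difference of −0.68 (SE 0.13), in a stage where 32.2% of genes were called lower in males. Dsx-labelled pupae gave 34.7, 35.7, 29.8, 48.2 and 46.7 CPM in females (39.0 ± 8.01, SD, n = 5). Males gave 23.4, 24.6, 25.9, 24.4 and 25.1 CPM (24.7 ± 0.930, SD, n = 5), all below the females, at a log2 difference of −0.66 (SE 0.13), where 32.3% of genes were called lower in males. Female pupae also held more oskar and nanos, summing to 7.70 to 14.3 CPM in GFP females and 3.41 to 3.84 CPM in GFP males. Of this sum nanos made up 2.61 to 3.35 CPM in GFP females and 0.232 to 0.605 CPM in GFP males. In heads, which hold no ovary, the same sum was 4.57 to 8.06 CPM in GFP females and 2.68 to 3.99 CPM in GFP males. On day 7 it was higher in males, at 20.6 to 22.5 CPM with GFP against 2.09 to 3.22 CPM in GFP females. Within those sums nanos was 0.107 to 0.674 CPM in GFP female heads and 0 to 0.0792 CPM in GFP male heads. For day 7 larvae nanos was 0.489 to 0.729 CPM in GFP females and 0.506 to 0.696 CPM in GFP males. Within female pupae Ahcy and oskar ran together in some libraries and not in others. GFP replicate 4 was lowest in both Ahcy and oskar (4.77 CPM). Replicate 5, the highest in Ahcy, had 8.06 CPM of oskar, near the 8.10 CPM of replicate 2. Replicate 1 had the most oskar, at 10.9 CPM. For nanos, GFP replicate 1 was highest (3.35 CPM) and replicate 3 lowest (2.61 CPM). Dsx-labelled replicates 4 and 5, the highest in Ahcy, were the highest in oskar, at 13.1 and 10.2 CPM. They were also the highest in nanos, at 4.29 and 4.34 CPM. The part of ovary in these values was not tested.

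On day 9, GFP female larvae gave 63.4, 60.4, 62.2, 60.8 and 66.5 CPM (62.7 ± 2.46, SD, n = 5). GFP males gave 43.1, 52.5, 46.0, 44.1 and 44.9 CPM (46.1 ± 3.74, SD, n = 5). The sexes did not overlap, at a log2 difference of −0.44 (SE 0.05), in a stage where 22.3% of genes were called lower in males. Dsx-labelled larvae gave 57.4, 66.7, 61.7, 60.4 and 64.7 CPM in females (62.2 ± 3.63, SD, n = 5). Males gave 51.8, 49.6, 50.9, 49.2 and 52.0 CPM (50.7 ± 1.28, SD, n = 5), again all lower, at a log2 difference of −0.29 (SE 0.05), where 10.5% of genes were called lower in males. With GFP the summed germline markers, oskar and nanos, ran the other way, at 15.5 to 23.3 CPM in males and 4.86 to 8.49 CPM in females. This came from oskar, at 14.8 to 22.3 CPM in males and 4.01 to 7.92 CPM in females. The sexes overlapped in nanos, at 0.664 to 0.994 CPM in males and 0.568 to 0.889 CPM in females. With the dsx label the sums of oskar and nanos overlapped, at 6.16 to 8.03 CPM in males and 5.08 to 7.93 CPM in females.

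Day 7 larvae and embryos showed no separation of the sexes. On day 7 the group means lay between 41.4 ± 3.06 CPM in GFP females and 44.4 ± 2.02 CPM in dsx-labelled females (SD, n = 5), with GFP males at 42.5 ± 2.62 and dsx-labelled males at 41.7 ± 5.68. The sexes overlapped under both dsRNAs, at log2 differences of 0.04 (SE 0.08) with GFP and −0.09 (SE 0.08) with the dsx label, the second of which changed sign when libraries were scaled by their totals alone. In embryos GFP females gave 79.8, 73.7, 83.8, 95.8 and 93.2 CPM (85.3 ± 9.19, SD, n = 5). GFP males gave 75.6, 97.4, 155, 176 and 76.0 CPM (116 ± 46.5, SD, n = 5). Male replicates 3 and 4 stood above every other embryo library, while replicates 1, 2 and 5 lay among the females or just above them. The log2 difference was 0.44 (SE 0.22), and 0.0417% of genes were called in either direction between GFP embryos of the sexes. Dsx-labelled embryos averaged 70.9 ± 13.8 CPM in females and 91.2 ± 21.5 CPM in males (SD, n = 5), with overlap, at a log2 difference of 0.36 (SE 0.22).

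**Figure D2:**
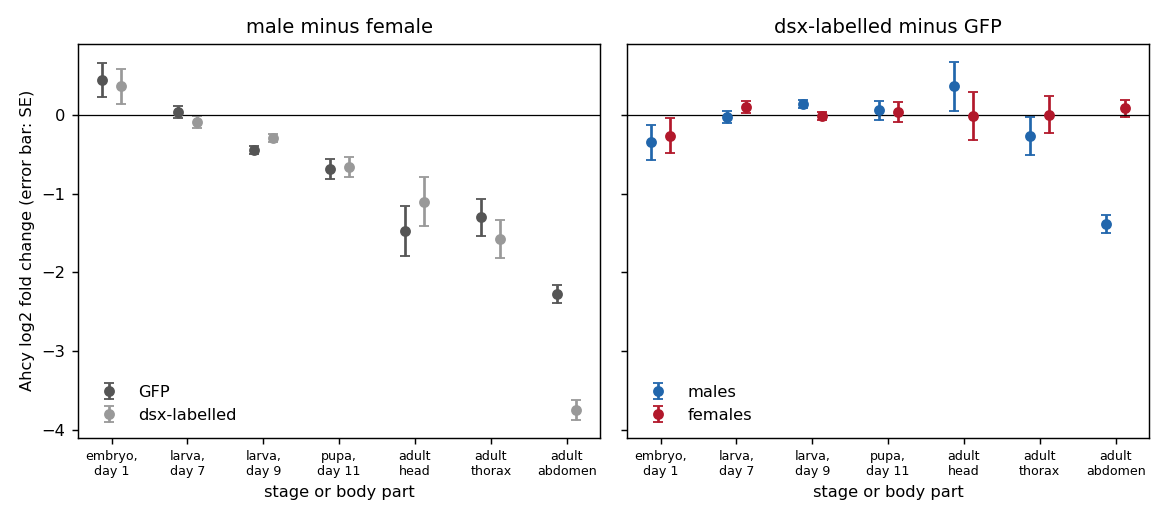
Log2 differences of Ahcy with their SE by stage or body part: male minus female under each dsRNA (left) and dsx-labelled minus GFP in each sex (right). The male minus female difference runs from 0.44 in GFP embryos to −2.28 in GFP abdomens and −3.75 in dsx-labelled abdomens, and the label difference of −1.39 in male abdomens stands apart from the other 13.

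None of the 13 label comparisons tested passed edgeR's quasi-likelihood test at an adjusted p below 0.05, and 1 had an unadjusted p below 0.05. DESeq2 also called 0 of them. In females the 7 log2 differences ran from −0.27 (SE 0.22, adjusted p = 0.566) in embryos to 0.10 (SE 0.08, adjusted p = 0.924) on day 7. Over the 7 stages 0.0282% of all gene tests were called in females, so few genes of any kind passed there.

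In males the day 9 larvae came nearest to a call, at a log2 difference of 0.14 (SE 0.05). Their unadjusted p was 0.0167 and their adjusted p 0.139 by edgeR, and an exact two-sided permutation test gave p = 0.0476. All 5 dsx-labelled males lay above 4 of the 5 GFP males, and GFP replicate 2, at 52.5 CPM, was the highest of the 10. Leaving out single libraries gave log2 differences of 0.11 to 0.15, with 1 of 20 fits past the threshold (adjusted p = 0.0364). The other male differences were −0.35 (SE 0.22, adjusted p = 0.996) in embryos, −0.03 (SE 0.08, adjusted p = 0.943) on day 7, 0.06 (SE 0.12, adjusted p = 0.988) in pupae and −0.27 (SE 0.24, adjusted p = 0.427) in thoraces, all by edgeR. Genes called in males under the dsx label made up 26.9% of those tested in thoraces, 8.92% in heads, 1.06% in pupae, 3.41% on day 9, 4.1% on day 7 and 0% in embryos.

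In male heads the label difference was 0.36 (SE 0.31, adjusted p = 0.616 by edgeR). On the leading component of variation within groups over all genes, GFP male heads 1 and 2 and dsx-labelled male head 1 scored 0.422, 0.392 and 0.584, and the other 7 male heads −0.299 to −0.112. These 3 libraries held the highest Ahcy of the male heads, at 26.6, 21.4 and 25.7 CPM. They held less of Tm1, a tropomyosin gene of muscle, at 709, 688 and 679 CPM against 1427 to 2190 CPM in the other 7. Tm2 was lower there too, at 1.70, 1.62 and 2.31 CPM against 5.95 to 7.50 CPM.

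Without those 3 libraries, a choice made after seeing the data, the label difference in male heads was 1.13, and the GFP sex difference was −2.41. Because they were the male heads highest in Ahcy, leaving them out bears directly on these differences, and no test is given. With the component as a covariate, also not planned beforehand, the label difference was 0.58. The component set the same 3 libraries apart, so no test is given for that fit either. In the reduced set GFP males 3 to 5 lay at 6.00 to 9.11 CPM and dsx-labelled males 2 to 5 at 13.4 to 20.3 CPM, with no overlap. The direction, higher under the dsx label, was opposite to that in male abdomens, but over all male heads the difference, 0.36, was not called. The part of muscle content in these head values was not tested.

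**Figure D3:**
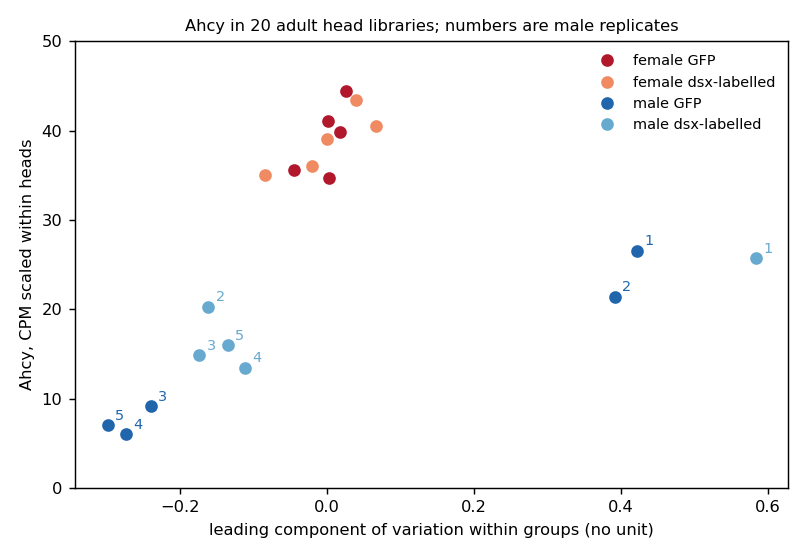
Ahcy in the 20 adult head libraries (CPM scaled within heads, vertical axis from 0) against each library's score on the leading component of variation within groups (no unit); numbers mark male replicates. GFP males 1 and 2 and dsx-labelled male 1 sit apart at scores of 0.392 to 0.584, and all male heads lie below the female heads.

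To order all 28 groups on 1 scale, CPM were scaled over the 140 libraries together, a scale used only here and on which levels differ somewhat from those above. Dsx-labelled and GFP female abdomens came first, at means of 163 and 153 CPM. The 4 embryo groups followed, from 121 CPM in GFP males to 72.6 CPM in dsx-labelled females. Female day 9 larvae stood at 55.0 CPM with GFP and 54.3 CPM with the dsx label, and female pupae at 43.9 and 45.2 CPM.

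A dense middle ran down to GFP male day 9 larvae at 37.0 CPM and held, among others, GFP male abdomens at 39.4 CPM and female heads and thoraces at 38.2 to 39.1 CPM. The bottom 7 groups were all male: pupae of both labels, heads of both labels, thoraces of both labels and dsx-labelled abdomens, from 26.5 CPM in dsx-labelled pupae to 12.8 CPM in dsx-labelled thoraces. Neighbours in this order overlapped in 26 of 27 pairs, and the 1 gap lay between the lowest GFP male day 9 larva at 34.9 CPM and the highest dsx-labelled male pupa at 27.6 CPM. The highest mean was 12.7 times the lowest. Dsx-labelled male abdomens, at 14.4 CPM, thus ranked 26th, beside male heads and thoraces, and GFP male abdomens 14th. Ranks in the dense middle depended on the scaling: by library totals alone GFP male abdomens ranked 19th, and dsx-labelled and GFP female pupae 15th and 18th in place of 9th and 10th. The first 6 groups kept their ranks, and the same 7 male groups stayed last.

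**Figure D4:**
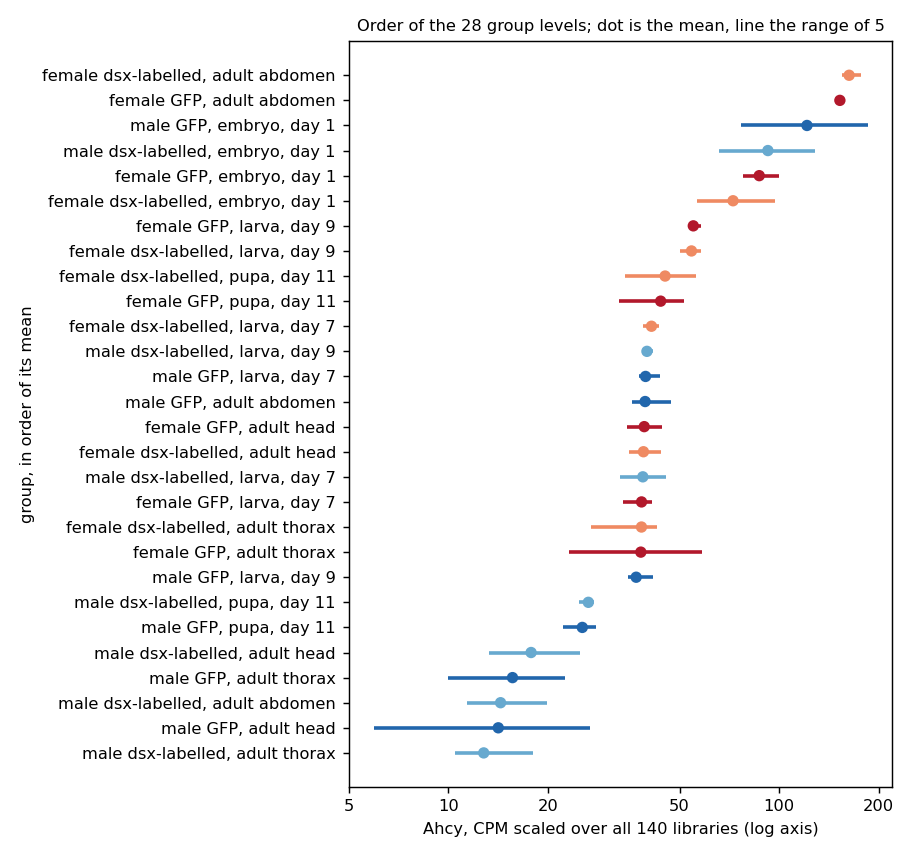
The 28 groups in order of mean Ahcy, as CPM scaled over all 140 libraries (horizontal log axis); dots are means and lines the range of 5 libraries. Female abdomens lead at 163 and 153 CPM, and the 7 lowest groups, all male, lie at 12.8 to 26.5 CPM.

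The other genes of methyl metabolism were few, because genes were matched by symbol. Of 24 list entries 7 were found, and beside Ahcy these were Shmt1, Dnmt1a, Apip, Slc25a26, Icmt and N6amt2. No other enzyme of the methionine cycle itself was among them. Over 7 stages the 6 genes gave 42 tests per comparison. Between GFP males and females 17 of the 42 (44% of all gene tests were called) passed edgeR's test, 6 higher and 11 lower in males. Under the dsx label 6 of 42 passed in males, 4 higher and 2 lower, against 11.9% of all gene tests. In females 0 of 42 passed by edgeR, against 0.0282% of all gene tests, with 2 at an unadjusted p below 0.05, and 0 by DESeq2. The median log2 label difference of the 42 was 0.01 in males and 0.03 in females, where the medians of all genes by stage lay between −0.01 and 0.02 and between −0.02 and 0.00.

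In GFP abdomens all 6 genes differed between the sexes, in a tissue where 86.8% of genes did. Slc25a26, which carries S-adenosylmethionine into mitochondria in mammals, was lower in males, at 1.72 ± 0.369 CPM against 7.95 ± 0.883 CPM (log2 −2.21, SE 0.14, adjusted p = 6.36e-12 by edgeR). N6amt2, whose symbol denotes a methyltransferase, was lower in males at a log2 difference of −1.95 (SE 0.19, adjusted p = 6.65e-09 by edgeR). Dnmt1a, a maintenance DNA methyltransferase, was lower in males too, at −0.90 (SE 0.07, adjusted p = 1.02e-10 by edgeR). Shmt1, the serine hydroxymethyltransferase that feeds one-carbon units into the folate cycle, was higher in males, at 459 ± 39.1 CPM against 258 ± 24.1 CPM. Apip, of methionine salvage, and Icmt, which methylates prenylated proteins, were each higher in males by a log2 difference of 0.46 (SE 0.09). Both of these calls were lost when libraries were scaled by their totals alone, at 0.09 each.

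In male abdomens, where Ahcy stood 2.62-fold lower under the dsx label, 4 of the 6 genes passed the same test, against 39.3% of all genes there, and their median log2 difference was 0.07 against 0.02 for all genes. Shmt1 rose, from 444, 479, 399, 474 and 499 CPM in GFP males to 754, 812, 750, 583 and 572 CPM (log2 0.60, SE 0.10, adjusted p = 7.65e-05 by edgeR). Every dsx-labelled male was above every GFP male. Slc25a26 rose from 1.72 ± 0.369 to 2.55 ± 0.362 CPM (log2 0.57, SE 0.14, adjusted p = 0.00262 by edgeR), with overlapping groups.

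The remaining 2 of the 4, named after their values were seen, fell as Ahcy did. Dnmt1a fell from 65.2, 66.9, 64.4, 65.3 and 54.8 CPM to 45.7, 51.0, 47.2, 46.4 and 45.6 CPM (log2 −0.42, SE 0.07, adjusted p = 4.03e-05 by edgeR). Its groups did not overlap. N6amt2 fell from 3.59 ± 1.08 to 2.46 ± 0.678 CPM (log2 −0.54, SE 0.19, adjusted p = 0.0293 by edgeR), with overlap, and its call was lost in 3 of 20 fits that left out a library and in a fit on the male groups alone. Apip (51.8 CPM with GFP, 48.9 CPM with the dsx label) and Icmt (14.6 and 17.0 CPM) did not pass. For 3 of the 6 genes, Shmt1, Dnmt1a and Slc25a26, the label effect in abdomens also differed between the sexes by the interaction term of the fit, which called 25.4% of all genes.

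**Figure D5:**
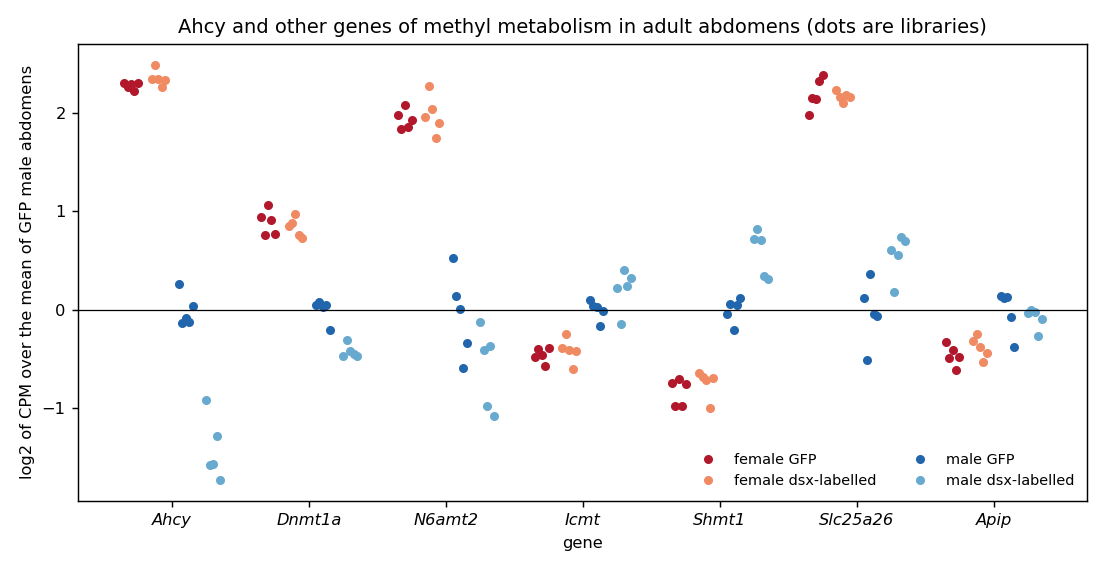
Ahcy and the 6 other methyl metabolism genes in the 20 adult abdomen libraries, as the log2 ratio of each library's CPM to that gene's mean in GFP male abdomens; dots are libraries. Among dsx-labelled males Ahcy, Dnmt1a and N6amt2 lie lower on average and Shmt1 and Slc25a26 higher, and Ahcy lies furthest from 0.

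Thoraces gave the other 2 calls in males under the dsx label. Shmt1 rose from 253 ± 40.2 to 386 ± 46.2 CPM (log2 0.61, SE 0.15, adjusted p = 0.0053 by edgeR) with no overlap. Apip rose from 15.5 ± 4.87 to 25.9 ± 5.26 CPM (log2 0.74, SE 0.19, adjusted p = 0.00754 by edgeR) with overlap. Ahcy itself was at 12.4 and 10.3 CPM in the same groups and did not pass. The muscle gene Tm2 moved in this comparison too, from 45.8, 249, 170, 183 and 64.1 CPM in GFP males to 17.4, 15.0, 13.4, 66.3 and 70.4 CPM (log2 −1.96, SE 0.50, adjusted p = 0.00778 by edgeR), with overlap. GFP males 1 and 5, the lowest of their group in Tm2, were the highest in Shmt1 (291 and 297 CPM) and Apip (22.2 and 18.9 CPM). For Ahcy these libraries were the lowest and the highest of the group, at 7.83 and 18.3 CPM. Tm1, the other tropomyosin gene, was at 2431 ± 540 and 2465 ± 262 CPM with GFP and the dsx label and did not pass (adjusted p = 0.938 by edgeR). The part of muscle content in these thorax values was not tested.

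The genes whose group means ran most like those of Ahcy carry no gene name in the files. Over the 28 group means of log2(CPM + 0.5), among 8528 genes averaging at least 10 CPM, Pearson's r with Ahcy was 0.894 for LOC100121346, 0.892 for LOC116417192, 0.889 for LOC100678529, 0.888 for LOC100113663 and 0.886 for LOC100123426. These are descriptions over group means that share the same libraries, and 218 genes had an r over 0.8. The order among them was loose, since by Spearman's rho the 5 genes ranked between 17 and 34.

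All 5 were higher in GFP female than GFP male abdomens, which their choice by likeness over the same means favours. None of them was lower in dsx-labelled males by a log2 difference beyond 0.02, where 17.6% of all genes were called lower. LOC100113663, for example, was at 1006 ± 62.1 CPM in GFP females, 270 ± 12.1 CPM in GFP males and 266 ± 12.8 CPM in dsx-labelled males. LOC100123426 was at 45.9 ± 1.80, 9.23 ± 0.628 and 9.61 ± 0.446 CPM in the same order. LOC116417192 was higher in dsx-labelled than in GFP male abdomens, at 9.99 ± 2.27 against 4.17 ± 0.555 CPM, with 272 CPM in GFP females. LOC100678529, at 131 CPM in GFP female abdomens, was near 0 in male abdomens except for 3.73 CPM in dsx-labelled replicate 4, the library in which oskar also stood high.

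The nearest annotated genes on either side, LOC100120900 and LOC100120925 in the RefSeq assembly Nvit_psr_1.1, had r values of −0.44 and 0.05 with Ahcy over the same 28 means, and 0 annotated genes overlapped it. In male abdomens LOC100120900 was at 13.9 ± 0.803 CPM with GFP and 13.1 ± 0.784 CPM with the dsx label. LOC100120925 was at 4.44 ± 0.329 and 5.46 ± 0.631 CPM. Neither was lower in dsx-labelled males by as much as Ahcy.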

How the data were processed

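RNA-seq libraries (NEBNext Ultra RNA kit, paired 150 bp reads, NovaSeq, per the labels' protocols) were deposited by the authors as 1 table of raw counts, whole reads per gene. The submitters' processing notes name HISAT2 2.0.5 and HTSeq 0.6.1. The genome build and whether strand was used are not stated in these sources. Counts of each stage's 20 libraries were fitted with edgeR 4.0.16 (R 4.3.3; quasi-likelihood test, 1 mean per group, TMM scaling, filterByExpr with a minimum count of 10), with Benjamini-Hochberg adjustment over the 11782 to 12400 genes tested and a threshold of 0.05. The same code was also run on simulated counts, for the label comparison in males alone, which does not bear on the sex differences. CPM used the same scaling.

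Ahcy, the gene lists and the comparisons were chosen with earlier results of these data known. Gene products were matched by symbol (14799 of 15471 symbols are in RefSeq Nvit_psr_1.1), so 7 of 24 methyl metabolism entries were found, 4 of them (Apip, Slc25a26, Icmt, N6amt2) added from the table's symbols. Of 17 marker entries 3 were found (oskar, nanos, tropomyosin), and fat body, testis and eye markers were not used here. Named genes were the methyl metabolism genes, up to 2 called ones per comparison outside the methionine cycle, the 5 genes most like Ahcy, and Dsx. Replicate pairs all differed beyond sampling noise. Same-numbered libraries deviated together (every pair's correlation over 0.1, from 0.142 to 0.608) in 1 of 28 pairings, dsx-labelled and GFP male pupae; there the pairing rests on the data, and the block changed no call. Alternatives were other scaling factors, no filter, DESeq2 1.42.0, a fit on 2 groups, the replicate block, an exact permutation test and each library left out.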

Additional observations from a re-analysis of the deposited data

Results flagged for a closer look

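A library standing apart from the other 4 of its group was looked for in 108 combinations of gene and group, with Dixon's critical value of 0.71, and 14 were found; chance gives about 1 in 20. For Ahcy itself 1 of 28 groups held such a library, dsx-labelled female thorax replicate 4 at 22.0 CPM.

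Among the germline markers, oskar stood apart at 74.7 CPM in GFP female embryo replicate 3, 9.12 CPM in dsx-labelled male embryo replicate 3, 32.5 CPM in GFP female thorax replicate 2, 3.19 CPM in dsx-labelled male thorax replicate 1 and 36.7 CPM in dsx-labelled male abdomen replicate 4. The gene nanos did so at 28.9 CPM in GFP female embryo replicate 3, 0.729 CPM in dsx-labelled male pupa replicate 2, 0.194 CPM in GFP male thorax replicate 5 and 4.94 CPM in dsx-labelled male abdomen replicate 4. GFP female thorax replicate 2, high in oskar, was also the highest thorax in Ahcy, at 46.9 CPM. Dsx-labelled female thorax replicate 4 ran the opposite way, highest of its group in oskar (16.7 CPM) and nanos (5.55 CPM) and lowest in Ahcy.

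Among the methyl metabolism genes, Shmt1 was at 229 CPM in dsx-labelled female abdomen replicate 4, Dnmt1a at 54.8 CPM in GFP male abdomen replicate 5, Slc25a26 at 2.95 CPM in dsx-labelled male thorax replicate 1 and Icmt at 14.4 CPM in GFP male thorax replicate 1.

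The dsx label effect in abdomens differed between the sexes for 3 of these genes by the interaction term of the edgeR fit, which called 25.4% of all genes in abdomens. The effect in males minus that in females was 0.51 on the log2 scale for Shmt1 (SE 0.14, adjusted p = 0.0108), −0.37 for Dnmt1a (SE 0.09, adjusted p = 0.00622) and 0.60 for Slc25a26 (SE 0.19, adjusted p = 0.0243).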

How the results depend on the processing

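Values are log2 differences. Scaling by library totals alone moved the median of all genes to 0.20 and 0.15 on day 7 (male minus female, GFP and dsx-labelled), −0.10 on day 9 with GFP, and −0.36 and −0.34 in abdomens. Ahcy's sex difference became 0.23 and 0.044 on day 7 (the second reversed), −0.54 and −0.38 on day 9, and −2.65 and −4.16 in abdomens; its female label difference reversed to 0.020 on day 9 and 0.0074 in heads, and the Shmt1 sex difference on day 7 reversed to 0.056. The female thorax difference, near 0, was −0.0037 with RLE factors, −0.0036 with no filter and −0.0037 with DESeq2. The exact permutation test passed 0.05 unadjusted in male day 9 larvae (0.14) and female abdomens (0.080). In male heads the added covariate gave 0.58; leaving out 3 male heads gave 1.13 and a GFP sex difference of −2.41.

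With each library left out in turn, the GFP sex difference on day 7 ran from −0.016 to 0.065. The male label difference ran from −0.12 to 0.025 on day 7, 0.11 to 0.15 on day 9 and −1.60 to −1.31 in abdomens. With no call gained it ran from −0.49 to −0.15 in embryos (the latter without GFP male 4), 0.17 to 0.73 in heads (without GFP males 4 and 1) and −0.42 to −0.09 in thoraces (without dsx-labelled male 5 and GFP male 5). The GFP sex difference in embryos ran from 0.25 (without GFP male 4) to 0.58. The female label difference ran from −0.038 to 0.016 on day 9, −0.057 to 0.12 in pupae, −0.055 to 0.039 in heads and −0.14 to 0.21 in thoraces. By library totals alone 12 of 28 group levels moved by more than their SD. Counts for the 6 methyl metabolism genes kept within 1.5 times (14 to 21 for 17, 5 to 7 for 6, and 0). With the replicate block the male pupa difference was 0.06 (adjusted p = 0.992 by edgeR) and the label calls of the 6 genes in males were 6, and the block changed no Ahcy call. Counts of Ahcy, at least 450 per library, were not limiting.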
